A study of Mus musculus with 167 samples.

Results

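Tumours with almost no Cdkn2a transcript were compared with tumours rich in it among 167 asbestos-induced tumours of 119 mice. Tumours were chosen by their own Cdkn2a count: 52 tumours under 2 counts per 1000000 counts of the library (CPM) are called Cdkn2a-absent, and 40 tumours at 30 CPM or more are called Cdkn2a-high. These 92 tumours came from 70 mice of 32 strains, with 43 mice of 25 strains in the absent group and 28 mice of 18 strains in the high group. The other 75 tumours lay between the thresholds and entered no test. The name absent is a short form, since no library was at 0: the 52 libraries held between 2 and 39 Cdkn2a counts.

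Every mouse was the offspring of a male of a Collaborative Cross line, an inbred mosaic of several founder genomes, and a MexTAg female. MexTAg animals carry the large T antigen of the virus SV40 under the mesothelin promoter, which is active in mesothelial cells, and both groups carried this transgene. Per the labels, all mice were given 2 injections of 3 mg crocidolite asbestos into the peritoneal cavity, and whole tumours were sequenced, so that a library holds every cell type of the tumour. No mouse without asbestos or without the transgene was analysed here, and the labels used give no ages.

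The Cdkn2a gene encodes 2 unrelated proteins from separate first exons, p16Ink4a, which blocks the cyclin D kinases Cdk4 and Cdk6 and so keeps the retinoblastoma protein RB active, and p19Arf, which blocks Mdm2 and so protects p53. Its neighbour Cdkn2b encodes p15Ink4b, a further inhibitor of the same kinases, and Mtap on the other side encodes the enzyme that recycles methylthioadenosine into methionine. In human mesothelioma these neighbours are often deleted together. The large T antigen binds and disables both RB and p53. The deposited table gives 1 count for the Cdkn2a gene, so p16Ink4a and p19Arf transcripts could not be told apart.

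The locus has 4 promoters, shown here because the counts of their genes are compared below. Each sequence is the stretch of 250 bases before a RefSeq transcription start on mouse chromosome 4 (build GRCm38.p6), written 5′ to 3′ in the direction of the gene. Capitals mark matches on either strand to the E2F-type motifs TTTCCCGC, TTTGGCGC, TTTCGCGC and TTTGCCGC, or to the GC box GGGCGG. The matches do not overlap one another in these windows.
Cdkn2b, chr4:89311033-89311282, minus strand: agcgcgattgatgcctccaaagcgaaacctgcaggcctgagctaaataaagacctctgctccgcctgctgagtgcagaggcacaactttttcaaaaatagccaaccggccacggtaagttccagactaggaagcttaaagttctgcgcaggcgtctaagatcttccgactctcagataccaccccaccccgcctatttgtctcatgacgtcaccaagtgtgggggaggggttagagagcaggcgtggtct
Cdkn2a p19Arf start, chr4:89294620-89294869, minus strand: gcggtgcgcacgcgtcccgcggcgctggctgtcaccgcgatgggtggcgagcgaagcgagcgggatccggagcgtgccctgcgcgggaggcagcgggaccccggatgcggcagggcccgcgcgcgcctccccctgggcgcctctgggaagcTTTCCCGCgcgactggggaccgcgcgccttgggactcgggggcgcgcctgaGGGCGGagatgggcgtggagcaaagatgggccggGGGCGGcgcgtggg
Cdkn2a p16Ink4a start, chr4:89282193-89282442, minus strand: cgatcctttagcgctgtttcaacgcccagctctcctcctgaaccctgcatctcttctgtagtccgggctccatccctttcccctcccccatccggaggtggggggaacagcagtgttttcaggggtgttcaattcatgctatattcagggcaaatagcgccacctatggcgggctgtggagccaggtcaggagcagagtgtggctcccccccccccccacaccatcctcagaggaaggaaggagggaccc
Mtap, chr4:89137120-89137369, plus strand: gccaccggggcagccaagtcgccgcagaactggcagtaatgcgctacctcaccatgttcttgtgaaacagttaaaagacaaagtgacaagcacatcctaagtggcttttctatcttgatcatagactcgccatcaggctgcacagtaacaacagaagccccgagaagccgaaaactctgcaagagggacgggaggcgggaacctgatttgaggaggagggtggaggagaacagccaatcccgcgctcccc
The p19Arf window held 1 E2F-type match, starting 99 bases before the start site, and 2 GC boxes, and 78.4% of its bases were G or C. None of these motifs was found in the other 3 windows, with 53.6% G or C for Cdkn2b, 60% for the p16Ink4a start and 54.4% for Mtap. Of 32851 RefSeq windows of this length, 1.86% held an E2F-type match and 32.7% a GC box. These matches describe letters only. For Mtap the window goes by the RefSeq start, while the distance given below goes by the GENCODE start at 89137122. By the GENCODE start nearly all of the Mtap window lies inside the gene.

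Libraries held between 13879373 and 26879133 estimated counts in the absent group (median 22598943.5) and between 11138491 and 27056814 in the high group (median 22330850.5). For the test, member tumours of a mouse were summed, which left 42 absent mice (51 tumours) and 27 high mice (39 tumours). Mouse LOX-D1, with 1 tumour in each group, was left out. The profile of its high tumour was nearer to another strain than to its own, with a correlation of 0.85 to the mean of strain LAT and of -0.12 to that of LOX. A tumour of mouse LAT-D3, between the thresholds, showed the reverse, with 0.84 to LOX and -0.10 to LAT. A further high library, ROGAN-C3 tumour 2, lay nearer to strain CC046 (0.78) than to its own (-0.01). In all, 6 of 162 libraries checked stood apart in this way, 2 high, 0 absent and 4 between. Without them 4019 genes passed, Cdkn2b was -4.65 and Mtap -1.81 (log2 fold change, absent minus high). Genes of another tissue took over 1% of the counts in 6 absent and 4 high libraries. Mesothelial markers were present in both groups at wide ranges: their summed level was 243 to 8902 CPM per absent mouse (median 780.3) and 186.0 to 7709 CPM per high mouse (median 683). Msln, which encodes mesothelin, ranged from 0.596 to 457 CPM (median 19.3) in absent mice and from 1.08 to 375 CPM (median 19.5) in high mice.

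Cdkn2a itself chose the groups and was not tested. It ranged from 0.144 to 1.79 CPM with a median of 0.955 CPM in the absent tumours, from 2.01 to 20.3 CPM with a median of 4.46 CPM in the tumours between, and from 30.4 to 563 CPM with a median of 153.3 CPM in the high tumours. The lower threshold ran through a dense stretch of values. TOFU-K2 at 1.75 CPM and LOX-D1 tumour 1 at 1.79 CPM lay just inside the absent group, while CC040-E4 and TAS-J2 at 2.01 CPM and CC001-H2 tumour 1 at 2.02 CPM lay just outside it. At the upper threshold, GIT-K1 tumour 2 at 30.4 CPM and CC044-F4 tumour 3 at 37.4 CPM lay inside, and CC059-B5 at 20.3 CPM and WOB2-N3 at 19.8 CPM lay outside.

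**Figure D1:**
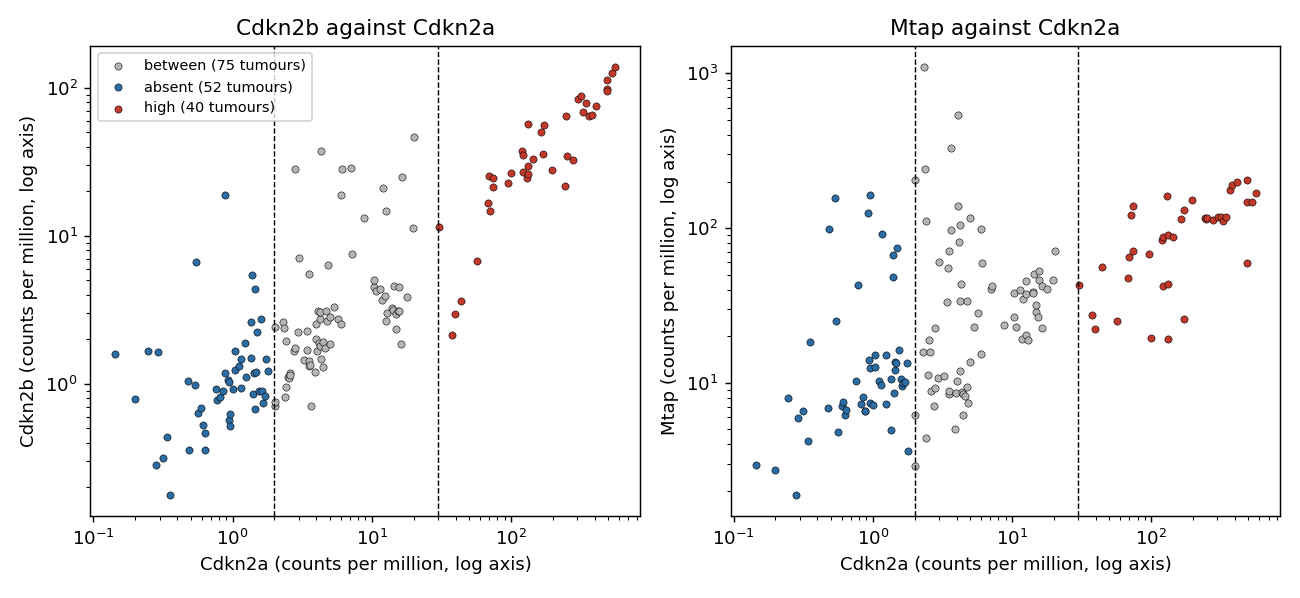
Level of Cdkn2b (left) and Mtap (right) against Cdkn2a in each of the 167 tumours, in CPM on log axes. Colours give the group and the dashed lines the thresholds of 2 and 30 CPM. All 40 high tumours held at least 2.13 CPM of Cdkn2b and 19.1 CPM of Mtap, whereas 45 and 42 of the 52 absent tumours lay under these values.

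Tumours of 1 mouse usually fell in the same class. Of 35 mice with several sequenced tumours, 28 had all of them in 1 class: 4 absent, 9 high and 15 between. Both an absent and a between tumour were found in 3 mice, both a high and a between tumour in 3, and LOX-D1 alone had an absent and a high one. LOX-D1 and LAT-D3, which is among those with a high and a between tumour, each held a tumour nearer to the strain of the other. Whether the labels of these tumours were exchanged was not tested, so the mixed classes of both mice are in doubt. In BOON-H2, tumour 2 had 0.488 CPM of Cdkn2a beside 3.64 and 3.52 CPM in tumours 1 and 3. Mtap was 99.3, 97.8 and 71.4 CPM in the same 3 tumours, so that their Mtap differed far less than their Cdkn2a. Mouse CC053-A1 differed at all 3 genes: tumour 1 had 174 CPM of Cdkn2a, 55.9 CPM of Cdkn2b and 131 CPM of Mtap, and tumour 2 had 16.3, 1.84 and 42.4 CPM. The consensus correlation between tumours of a mouse over all genes was 0.70 in a limma-voom fit on the 92 tumours with mouse as random block.

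Cdkn2b, the gene next to Cdkn2a (start 16.4 kb away), was lower in the absent tumours. It ranged from 0.178 to 18.9 CPM (median 0.958) in absent tumours, from 0.704 to 46.5 CPM (median 2.67) in tumours between and from 2.13 to 137 CPM (median 33.6) in high tumours. In 45 of 52 absent tumours it lay under the lowest high tumour. Over mice the log2 fold change, absent minus high, was -4.66 ± 0.34 (SE, adjusted p = 7.3e-18, edgeR). The 7 absent tumours that overlapped the high group included CC060-B1 at 18.9 CPM, YID-G3 at 6.63 CPM and CC081-C5 at 5.40 CPM. The lowest values of the high group were those of CC044-F4, at 2.13 and 2.98 CPM in tumours 3 and 2. In these bulk samples, fewer cells with a transcript and less transcript per cell cannot be told apart.

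Mtap, whose start lies 157.5 kb from that of Cdkn2a on the other side, was also lower in the absent group, with more overlap. It ranged from 1.89 to 165 CPM (median 10.1) in absent tumours and from 19.1 to 204 CPM (median 111.97) in high tumours. Between the thresholds it ranged from 2.92 to 1094 CPM (median 28.8), with the highest values in CC059-E2 tumours 3 and 1 (1094 and 538 CPM). The fold change over mice was -1.81 ± 0.34 on the log2 scale (adjusted p = 7.6e-05, edgeR). Over the 92 tumours, limma-voom gave -2.77 ± 0.26 (adjusted p = 4.1e-14), a size 1.53 times as large on the log2 scale. With strain as a covariate the edgeR value was -2.21 (adjusted p = 0.073), and with thresholds of 5 and 20 CPM it was -0.94 (adjusted p = 0.071), so the call was lost under both.

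Low Mtap did not go with low Cdkn2b in every absent tumour. Of the 52 absent tumours, 38 had both genes under the lowest high tumour, 7 had only Cdkn2b under it, 4 had only Mtap under it and 3 neither. Among the 10 absent tumours with Mtap at or over 19.1 CPM, 3 reached the median of the high tumours: CC001-H2 tumour 2 with 165 CPM, CC060-H2 with 155.6 CPM and VUX-D1 with 125 CPM. Their Cdkn2b was 0.570, 0.979 and 1.06 CPM, near the median of the absent group. CC060-B1 was the opposite case, with 18.9 CPM of Cdkn2b and 6.55 CPM of Mtap. Of the 75 tumours between the thresholds, 16 had both genes under the lowest high tumour.

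Farther along chromosome 4 the difference was patchy. Among the 30 tested neighbours of Cdkn2a, 15 on each side, 7 were lower and 2 higher in absent mice at an adjusted p of 0.05. Over all 16464 genes tested besides Cdkn2a, 12.7% were lower and 12.4% higher. The limma-voom fit over tumours called 5 of the neighbours lower and 1 higher, against 11.2% and 9.39% of all genes it tested. Within 0.5 Mb of Cdkn2a the 4 tested genes had a median log2 fold change of -1.34, and the 5 genes at 0.5 to 2 Mb a median of -0.29. The 13 genes at 2 to 5 Mb had a median of 0.50 and held no gene called lower.

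Focad, a gene for a focal adhesion protein that starts 1200.0 kb from Cdkn2a on the Mtap side, had a log2 fold change over mice of -0.83 ± 0.21 (adjusted p = 0.0026). It ranged from 1.01 to 34.7 CPM in absent tumours (median 13.9) and from 10.1 to 46.5 CPM in high tumours (median 26.3), and 13 absent tumours lay under the lowest high one. Klhl9, which encodes an adaptor of a ubiquitin ligase and starts 572 kb from Cdkn2a, did not pass in edgeR (-0.29 ± 0.21, adjusted p = 0.32) but passed in limma-voom (-0.80 ± 0.21, adjusted p = 0.0037). Its values were 7.57 to 183 CPM in absent tumours (median 75.7) and 33.9 to 135 CPM in high tumours (median 100.9). The fold change of Mllt3, a subunit gene of a transcription elongation complex, was -0.01 ± 0.26 and that of Dmrta1, the next tested gene beyond Cdkn2b, 0.89 ± 0.53, and neither passed (adjusted p = 0.98 and 0.22). For Dmrta1 the sign differed in limma-voom (-1.01, adjusted p = 0.054), and CC060-H2 held 21.5% of its summed CPM.

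Low values of the flanking genes came together in a few tumours. Klhl9 lay under its lowest high value in 12 absent tumours of 11 strains, and in 11 of these both Mtap and Cdkn2b did so too. All of Mllt3, Focad, Klhl9, Mtap and Cdkn2b were under the lowest high tumour in 7 absent tumours, 2 of them with Dmrta1 as well, while 21 had only Mtap and Cdkn2b under it and 6 only Cdkn2b. CC040-D3, the absent library with the lowest total count, was the lowest absent tumour for 3 of these genes. It had 1.66 CPM of Mllt3, 1.01 CPM of Focad and 7.57 CPM of Klhl9, and held 2.95 CPM of Mtap. The tumours between the thresholds held 7 with Klhl9, 12 with Focad, 7 with Mllt3 and 5 with Dmrta1 under the lowest high value. DNA was not measured in these files.

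**Figure D2:**
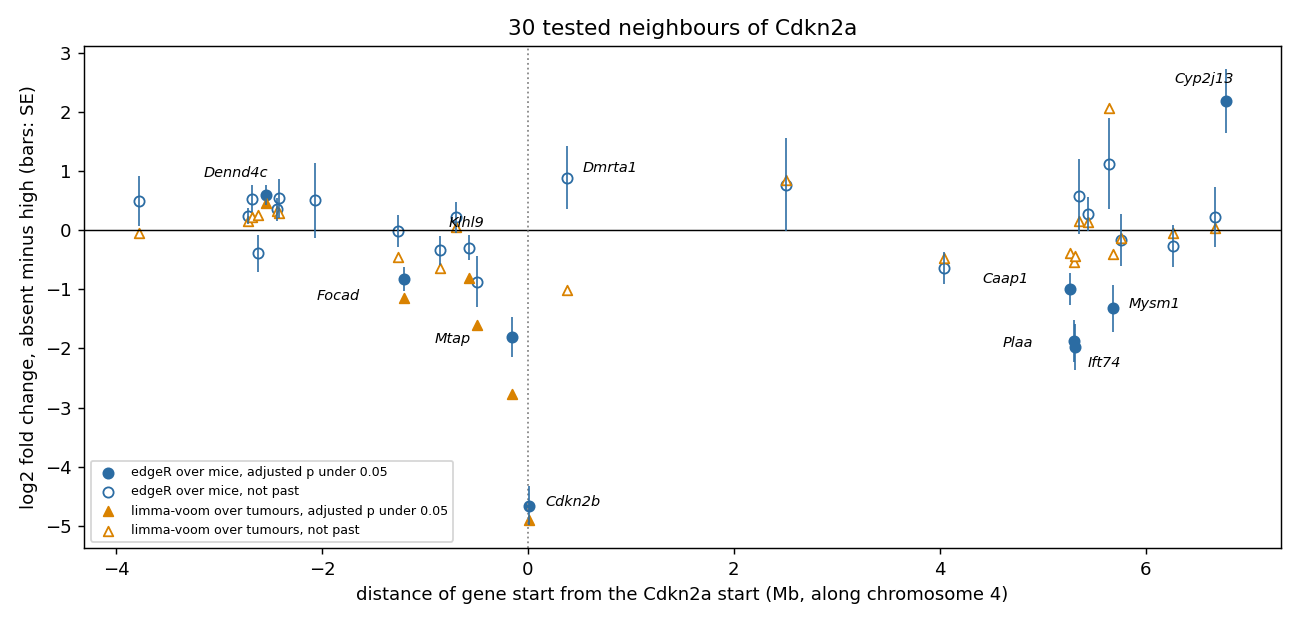
Log2 fold change, absent minus high, of the 30 tested genes nearest to Cdkn2a on chromosome 4 against the distance of their start from that of Cdkn2a in Mb. Circles with SE bars are edgeR over mice, triangles limma-voom over tumours, and filled symbols have an adjusted p under 0.05. Cdkn2b (-4.66) is the lowest, Mtap (-1.81) and Focad (-0.83) are filled for both fits, and Caap1, Plaa, Ift74 and Mysm1 for edgeR only.

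More than 5 Mb beyond Cdkn2b, 4 further genes passed as lower in edgeR: Caap1 (-0.997, adjusted p = 0.0051), Plaa (-1.87, adjusted p = 8.9e-05), Ift74 (-1.97, adjusted p = 0.00019) and Mysm1 (-1.32, adjusted p = 0.011). None of these 4 passed in limma-voom, where the adjusted p was 0.24, 0.15, 0.31 and 0.35. Without the libraries of the highest library numbers Caap1 was at -0.46 (adjusted p = 0.22) and Klhl9 at -0.07 (adjusted p = 0.83). Plaa, which encodes an activator of phospholipase A2, had a median of 119 CPM in absent mice and 122 CPM in high mice, and CC058-I4 alone, at 5377 CPM, held 25.5% of its summed CPM. The same mouse held 26.5% for Ift74, a gene of cilia transport, and 23.6% for Mysm1, a histone H2A deubiquitinase. On the Mtap side, 2546 kb away, Dennd4c, a regulator of Rab GTPases, was higher in absent mice by 0.59 ± 0.17 (adjusted p = 0.0063) with medians of 106.5 and 77.98 CPM. Cyp2j13 was called higher (2.19, adjusted p = 0.0023) with a median of 0.313 CPM in absent and 0.275 CPM in high mice, and CC081-C5 held 56.2% of its summed CPM.

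Strain differed between the groups, and only 10 strains held mice of both, with 12 absent and 16 high mice. In 10 of 10 of these strains the mean Cdkn2b level was lower in the absent mice, and Mtap was lower in 9 of 10. The exception for Mtap was CC001, with 165 CPM in its absent mouse and a mean of 83.5 CPM in its 2 high mice. Within strain, Cdkn2b was -5.21 ± 0.45 (adjusted p = 1.7e-06). It ranged from 0.178 to 4.36 CPM (median 0.826) in absent and from 16.96 to 131 CPM (median 31.9) in high mice of these strains, with no overlap.

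Across all genes, 4138 of 16464 (25.1%) passed between absent and high mice, 2093 lower and 2045 higher in the absent group, and limma-voom over the tumours called 3351 of 16252 (20.6%). Of these, 2527 genes passed in both with the same direction. Within strain, 77 of 15919 genes passed (0.484%) and 2358 had an unadjusted p under 0.05. The fit within strain had 28 mice behind the contrast. For some genes below, a single mouse held much of the summed CPM, and strain CC044 counted 3 high and 0 absent mice. The median log2 fold change over all tested genes was 0.01. At least 21 of the 42 absent mice lay under the lowest high mouse for 17 genes (0.103%). Cdkn2b with 36 mice and Mtap with 33 were the first 2 of these, followed by Gm3052 with 29, the zinc finger gene Zfat with 28 and Bap1 with 26, named because of this count after their values were seen.

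The INK4 proteins act on the cyclin D kinases and RB. Of 21 tested genes of the RB family, E2F factors and G1 cyclins, 3 were lower and 5 higher in absent mice, with a median of -0.05. Over all tested genes 12.7% were lower and 12.4% higher. The 3 D-type cyclins, the partners of Cdk4 and Cdk6, did not move alike. Ccnd2 ranged from 6.12 to 406 CPM in absent mice (median 46.4) and from 8.89 to 632 CPM in high mice (median 140.2), a fold change of -1.45 ± 0.28 (adjusted p = 0.00016). Ccnd3 was 15.8 to 121 CPM (median 51.7) against 45.8 to 287 CPM (median 80.4), a fold change of -0.85 ± 0.12 (adjusted p = 9.1e-07), and 14 absent mice lay under every high mouse. Ccnd1 went the other way, with medians of 477 and 258 CPM and a fold change of 0.71 ± 0.27 (adjusted p = 0.049), and limma-voom did not call it (adjusted p = 0.096).

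The kinase gene Cdk4 was slightly lower in absent mice (-0.32 ± 0.12, adjusted p = 0.036, medians of 181 and 213 CPM), while Cdk6 did not pass (-0.06 ± 0.17, adjusted p = 0.82). Rb1, the gene for RB, rose by 0.56 ± 0.16 (adjusted p = 0.0059), with 46.7 CPM in absent and 29.9 CPM in high mice as medians. Its relative Rbl2 (0.45, adjusted p = 0.0018) and the repressor genes E2f6 (0.52, adjusted p = 0.0018) and E2f8 (1.01, adjusted p = 0.0054) rose as well. Of the 6 other tested inhibitors of cyclin-dependent kinases, Cdkn1c, which encodes p57, fell by 1.85 on the log2 scale in edgeR (adjusted p = 0.0032) but not in limma-voom (-0.28, adjusted p = 0.73). Cdkn2c, for p18Ink4c, did not pass (-0.16 ± 0.16, adjusted p = 0.50). Of 30 genes of S phase and mitosis 0 passed in edgeR, limma-voom or DESeq2, and 1, 1 and 2 had an unadjusted p under 0.05. Over all tested genes, 6142 of 16464, 5383 of 16252 and 6136 of 16464 had such a p in the same order. The proliferation marker Mki67 was 0.50 ± 0.27 (adjusted p = 0.17). Without libraries holding another tissue 4 of the 30 were higher, and without strain CC044 3 were.

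Genes of the Arf and p53 axis leaned upward in the absent group. Of 22 tested members, 9 were higher and 3 lower in edgeR, with a median log2 fold change of 0.38, and 10 were higher and 0 lower in limma-voom. Over all tested genes edgeR called 12.4% higher and 12.7% lower, and limma-voom 9.39% and 11.2%. Mdm2, the p53 ubiquitin ligase that p19Arf inhibits and p53 induces, had medians of 90.5 CPM in absent and 58.03 CPM in high mice (0.47 ± 0.14, adjusted p = 0.011), and 40 of 42 absent mice lay above the high median. Mdm4, its partner, rose by 0.62 ± 0.13 (adjusted p = 0.00035). The p53 target genes Eda2r, a death receptor (1.499 ± 0.30, adjusted p = 0.00026), and Ccng1, a cyclin that regulates Mdm2 (0.85 ± 0.18, adjusted p = 0.00056), rose too. Perp, a p53 target of cell adhesion, was called higher (2.28, adjusted p = 0.0025), but VUX-D1 held 20.01% of its summed CPM and limma-voom did not call it (adjusted p = 0.095). The lower members were the p53 targets Sesn2, Bbc3 and Gdf15, with fold changes of -0.68, -0.57 and -1.35, and none of these passed in limma-voom.

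Trp53, the gene for p53, ranged from 21.5 to 208 CPM in absent mice (median 94.6) and from 5.95 to 325 CPM in high mice (median 40.2). Of the 27 high mice, 7 lay under every absent mouse and 2 above every absent mouse. The mean-based edgeR test did not pass (0.41 ± 0.26, adjusted p = 0.25), whereas limma-voom, which weighs log values, gave 1.24 (adjusted p = 6.9e-05) and edgeR within strain 1.64 (adjusted p = 0.039). Without strain CC044, whose mouse CC044-H2 had the highest level, edgeR gave 0.74 (adjusted p = 0.031). Cdkn1a, the p53 target that encodes p21, was similar, with medians of 82.6 and 40.2 CPM. Its fold change was 0.62 ± 0.27 in edgeR (adjusted p = 0.079) and 0.99 in limma-voom (adjusted p = 0.0020). Libraries of the highest library numbers came from 11 of 42 absent and 3 of 27 high mice, and without them Cdkn1a was at 0.15 (adjusted p = 0.70).

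**Figure D3:**
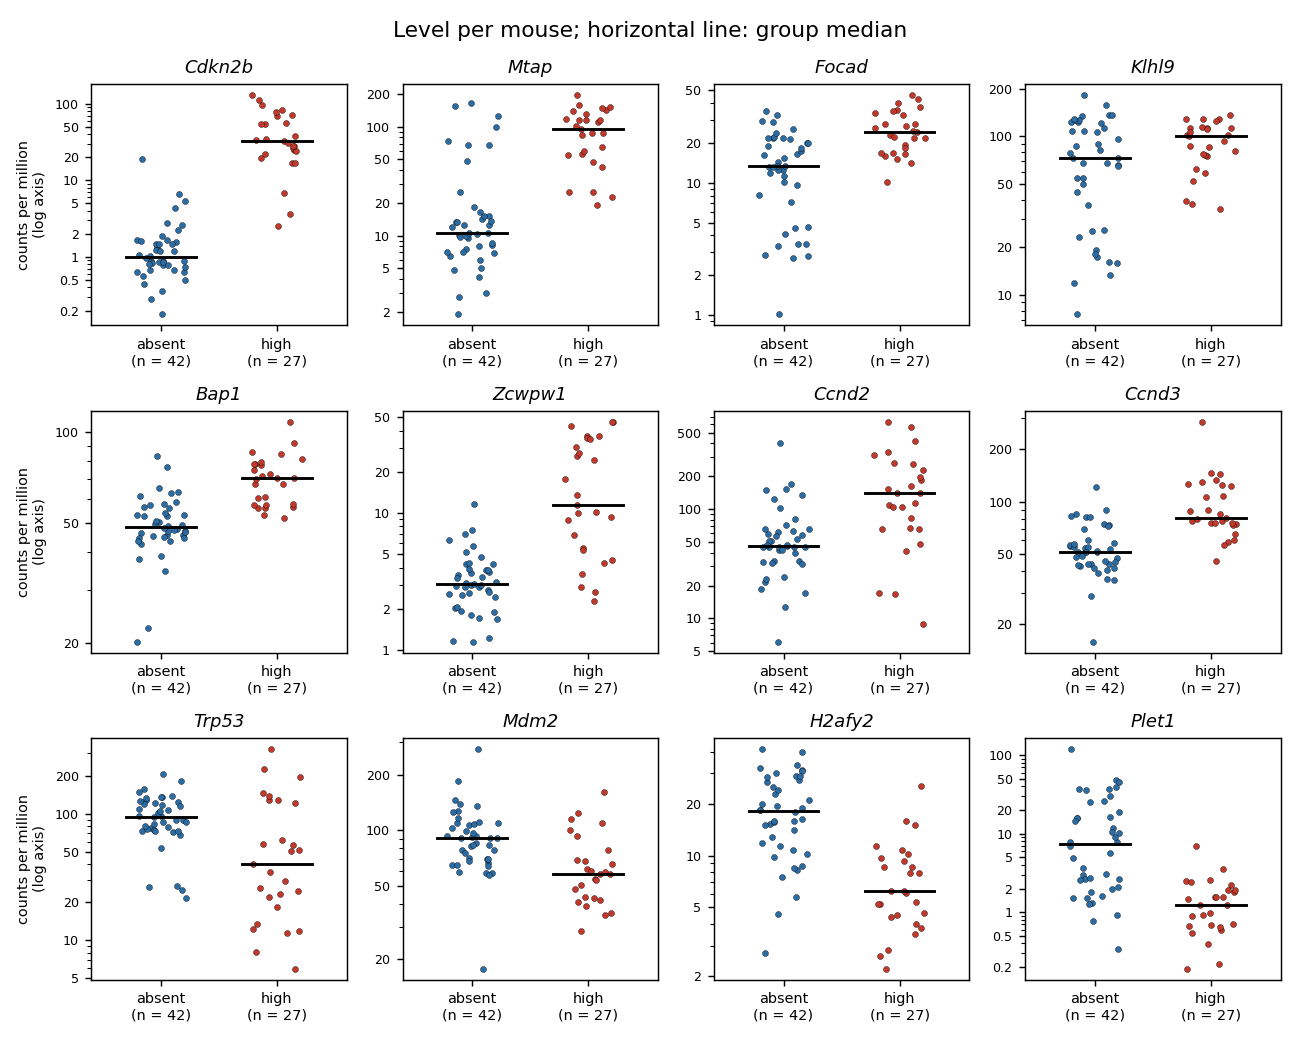
Level per mouse of 12 genes in the 42 absent and 27 high mice, in CPM on log axes, with the group median as a line. Cdkn2b and Mtap are low in most absent mice, Klhl9 and Focad only in some, Bap1, Ccnd2, Ccnd3 and Zcwpw1 have lower absent medians, and Trp53 spreads from 5.95 to 325 CPM in the high mice.

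Of 28 tested regulators of the locus, among them the Polycomb group, which represses INK4 and Arf, 4 were lower and 3 higher, with a median of 0.06. That is near the shares over all tested genes, 12.7% lower and 12.4% higher. In limma-voom 3 were lower and 5 higher, against 11.2% and 9.39% of all genes it tested. Bmi1, the Polycomb ring protein best known as a repressor of Cdkn2a, ranged from 35.7 to 164 CPM in absent mice (median 110.1) and from 39.9 to 107.2 CPM in high mice (median 73.5). It rose by 0.52 ± 0.09 (adjusted p = 5e-05), and 23 absent mice lay above every high mouse. Its partner Rnf2 (0.41 ± 0.11, adjusted p = 0.0050) and Tbx2, a T-box repressor of Arf (1.06 ± 0.29, adjusted p = 0.0059), also rose. Myc fell by 1.14 on the log2 scale (adjusted p = 4.5e-05), from a high median of 124.0 CPM to 82.7 CPM. CC044-H2, at 1358 CPM, held 16.2% of its summed CPM.

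Around Mtap, 3 of 20 tested genes of methionine salvage, polyamine synthesis and the PRMT5 complex were lower and 3 higher, with a median of 0.02, near the 12.7% and 12.4% of all tested genes. In limma-voom 4 were lower and 1 higher, against 11.2% and 9.39% of all genes it tested. Srm, the spermidine synthase whose reaction releases methylthioadenosine, fell by 0.92 on the log2 scale (adjusted p = 2.1e-05): it ranged from 12.2 to 75.2 CPM (median 38.3) in absent and from 33.05 to 147.8 CPM (median 72.7) in high mice. Amd1, the decarboxylase that feeds it, rose by 0.56 (adjusted p = 0.0022). Wdr77, the partner of PRMT5, was lower by -0.30 (adjusted p = 0.030), while Prmt5 itself did not pass (-0.16, adjusted p = 0.25). Il4i1 was called lower (-2.53, adjusted p = 2.8e-05) with medians of 1.40 and 1.68 CPM, and CC044-H2 held 35.4% of its summed CPM.

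Among 17 tested genes known as tumour suppressors in mesothelioma, 3 were lower and 2 higher in edgeR and 6 lower and 3 higher in limma-voom. The edgeR counts are near the 12.7% and 12.4% over all tested genes. In limma-voom the shares over all tested genes were 11.2% lower and 9.39% higher, and both counts of the list stand above them. Bap1, a deubiquitinase gene often mutated in this cancer, ranged from 20.2 to 83.5 CPM in absent mice (median 48.4) and from 51.7 to 108.1 CPM in high mice (median 70.4). It fell by 0.50 on the log2 scale (SE 0.08, adjusted p = 9.1e-06), and 40 of 42 absent mice lay below the high median. Tsc2, a brake on mTOR, fell by 0.38 (adjusted p = 0.0041), and Sav1 of the Hippo pathway (0.36, adjusted p = 0.014) and the corepressor gene Ncor1 (0.25, adjusted p = 0.032) rose. Nf2, the Hippo pathway gene most often lost in this cancer, did not pass (-0.06 ± 0.10, adjusted p = 0.73). Of 16 YAP pathway genes 1 was lower, Amotl2 (-0.95, adjusted p = 0.0055), and 2 higher, the YAP partner genes Tead4 (1.69, adjusted p = 0.00022) and Tead1 (0.52, adjusted p = 0.020). These edgeR counts do not stand above the 12.7% lower, and are near the 12.4% higher, of all tested genes. In limma-voom 4 of the 16 were lower and 2 higher, against 11.2% and 9.39% of all genes it tested.

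Genes here have a log2 fold change of 1 or more in size, a mean of at least 5 CPM and a symbol of a known gene. Among them the lower genes of lowest p after Cdkn2b were Zcwpw1 and 10 others. Zcwpw1, a reader of histone marks in meiosis on chromosome 5, ranged from 1.15 to 11.7 CPM in absent mice (median 3.01) and from 2.29 to 46.3 CPM in high mice (median 11.5). Its fold change was -2.43 ± 0.24 (adjusted p = 1e-11), 13 of 27 high mice lay above every absent mouse, and within strain it was -2.37 (adjusted p = 0.044). Gpc2, a heparan sulphate proteoglycan of the same chromosome (chr5:138273655-138280005, against chr5:137787798-137822621 for Zcwpw1, both GRCm38), had medians of 1.99 and 9.97 CPM and a fold change of -2.66 ± 0.37 (adjusted p = 4.7e-07). Its adjacent gene Stag3, a cohesin subunit of meiosis (chr5:138280240-138312393), was added after the values were seen. Stag3 had medians of 0.953 and 2.99 CPM and a fold change of -3.15 ± 0.52 (adjusted p = 1.2e-05), which did not pass within strain (adjusted p = 0.11). In the 10 strains with both groups, absent mice were lower in 9 for Zcwpw1, 9 for Gpc2 and 8 for Stag3.

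Rhof, a small GTPase of filopodia, fell by 1.87 on the log2 scale (adjusted p = 2.3e-08), Atxn7l2 by 1.02 (adjusted p = 5.2e-08) and Gaa, the lysosomal glucosidase, by 1.08 (adjusted p = 5.3e-06), and limma-voom called all 3. Tnfrsf4, which encodes OX40, a TNF receptor family member found on T cells, fell by 2.49 (adjusted p = 1.9e-06) with 43.3% of its summed CPM in CC044-F4. Without strain CC044 its fold change was -1.02 (adjusted p = 0.0034), in limma-voom -1.02, in DESeq2 -1.35 and within strain -0.60 (adjusted p = 0.60). The other 5 had group medians less than 2-fold apart. Marco, a macrophage scavenger receptor, had medians of 1.56 and 2.75 CPM and 92.999% of its summed CPM in VIT-A2 (3499 CPM), and A2m, a protease inhibitor, had 75.1% in CC046-J5. The lymphocyte genes Ptprcap, Map4k1 and Tnfrsf13c had 44.4%, 32.4% and 38.7% in CC044-F4. None of these 5 passed in limma-voom.

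Higher in absent mice were Plet1, an epithelial surface protein, and 11 others by the same rule. Plet1 ranged from 0.339 to 120 CPM in absent mice (median 7.39) and from 0.190 to 6.98 CPM in high mice (median 1.23). Its fold change was 3.27 ± 0.46 (adjusted p = 6.5e-07), and 22 of 42 absent mice lay above every high mouse. H2afy2, which encodes the histone variant macroH2A2, had medians of 18.1 and 6.21 CPM (1.29 ± 0.20, adjusted p = 5.5e-06), and 39 absent mice lay above the high median. The fold changes were 1.01 for Mipol1, 1.18 for Chpt1, an enzyme of phosphatidylcholine synthesis, 1.09 for Lrp11 and 1.39 for Mill2, an MHC class I-like molecule, with adjusted p from 1.5e-05 to 6.3e-05. Chpt1, Lrp11 and H2afy2 lie on chromosome 10.

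Other higher genes were high in subsets of absent mice. Nefl, the neurofilament light chain, had a median of 3.36 CPM and a maximum of 559 CPM in absent mice, against 1.25 and 6.13 CPM in high mice (5.14 ± 0.80, adjusted p = 3.9e-06). Kif17 (2.82), Gpr149 (4.32), Tmprss11b (4.34), Mcpt2 (4.84) and Dmp1 (4.82), a matrix protein gene of bone, were of the same kind. In Dmp1, 59.6% of the summed CPM stood in CC040-D3. All 6 passed in limma-voom as well, with smaller fold changes between 1.49 and 3.01.

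Within strain the 6 genes of lowest p were Cdkn2b, Usp20, Dus2, B3gnt3, Ttll7 and Pcdh9. Usp20, a deubiquitinase, ranged from 4.53 to 22.1 CPM in absent and from 18.7 to 65.2 CPM in high mice of the shared strains (-1.23 ± 0.18, adjusted p = 0.0062). Pcdh9, a protocadherin, had medians of 0.660 and 13.98 CPM there (-4.30 ± 0.75, adjusted p = 0.020), and Ttll7, a tubulin glutamylase, 19.6 and 64.8 CPM (-1.47 ± 0.25, adjusted p = 0.017). Dus2, a tRNA-modifying enzyme (1.19 ± 0.19, adjusted p = 0.010), and B3gnt3, a glycosyltransferase (1.71 ± 0.29, adjusted p = 0.017), were higher. All 6 had passed over all mice in the same direction.

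Markers of some other cell types moved with the groups, and their part in the results above was not tested. For the list counts from here on, the shares over all tested genes were 12.7% lower and 12.4% higher in edgeR. In limma-voom they were 11.2% and 9.39%. An unadjusted p under 0.05 was reached by 6142 of 16464 genes in edgeR, 5383 of 16252 in limma-voom and 6136 of 16464 in DESeq2. Within strain 2358 of 15919 genes reached it in edgeR, 3143 in DESeq2 and 2492 of 15919 in limma-voom. Mast cell genes were higher in the absent group under both tests, with 7 of 8 members passing and only Kit (0.28, adjusted p = 0.46) not. The summed level of the 8 genes was 4.58 to 631 CPM in absent mice (median 41.4) and 2.15 to 145.9 CPM in high mice (median 20.8). Cpa3, the mast cell carboxypeptidase, had medians of 5.93 and 1.58 CPM (2.88 ± 0.59, adjusted p = 0.00031), Tpsab1, a tryptase, rose by 3.04, Ms4a2, the IgE receptor chain, by 2.41 and Mrgprb1 by 2.79. Within strain 0 of the 7 tested passed in edgeR, DESeq2 or limma-voom, and 0, 3 and 6 had an unadjusted p under 0.05.

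Neutrophil genes were lower in absent mice, with 5 of 10 members in edgeR and 4 in limma-voom. The summed level was 14.9 to 2973 CPM in absent mice (median 208) and 23.6 to 5212 CPM in high mice (median 363). Csf3r, the receptor for granulocyte colony-stimulating factor, had medians of 16.8 and 30.8 CPM (-1.02 ± 0.21, adjusted p = 0.00034), and Mpo (-1.31), Cxcr2 (-1.25) and Mmp8 (-1.77) also passed in edgeR. Within strain 0 of 10 passed in edgeR, 0 had an unadjusted p under 0.05, and the median of the list was -0.25 in place of -1.02, with Cxcr2 at -0.45 and Mmp8 at -0.05. Fibroblast and matrix genes showed 6 lower and 0 higher of 20 in edgeR, with a median of -0.44. The counts were 4 and 2 in limma-voom (11.2% and 9.39% over all tested genes), 6 and 2 in DESeq2, and 3 and 1 without the libraries holding another tissue. The collagen genes Col1a1 (-1.06 ± 0.29, adjusted p = 0.0051), Col5a1 (-0.84, adjusted p = 0.014) and Col12a1 (-0.99, adjusted p = 0.031) and the matrix gene Fbln1 (-1.10, adjusted p = 0.0062) were among them. Col1a1 had medians of 3988 CPM in absent and 8630 CPM in high mice. The matrix protein gene Sparc (-0.65) was the only 1 of 17 mesenchymal markers to pass, and Cnn1 (-1.30) the only 1 of 10 smooth muscle genes. Both shares lie under the 12.7% of all tested genes called lower.

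T cell and B cell genes were called lower in edgeR, with 16 of 25 and 9 of 15 members, but 0 of either list passed in limma-voom, in which 11.2% of all genes did so as lower. In limma-voom 0 T cell and 3 B cell genes had an unadjusted p under 0.05, and DESeq2 called 3 T cell genes and 1 B cell gene lower and 1 of each higher. Within strain edgeR called 0 of either list, and 0 had an unadjusted p under 0.05. The summed level of the T cell list was 16.6 to 148.2 CPM (median 56.9) in absent mice and 13.3 to 2320 CPM (median 37.04) in high mice, so the median was higher in the absent group. CC044-F4 held 50.9% of the summed CPM of Cd2, 50.5% of Zap70, 72.8% of Ctla4 and 49.3% of Foxp3. In the B cell list, CC044-H2 held 39.5% of Cd79a and 49.9% of Fcrla, and CC044-F4 46.97% of Pax5. Without strain CC044, which holds 3 of the 27 high mice, 0 members of either list were lower and 4 T cell and 2 B cell genes were higher.

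Of 20 macrophage genes 5 were lower in edgeR and 0 in limma-voom, where 4 had an unadjusted p under 0.05, and DESeq2 called 4 lower and 2 higher. VIT-A2 held 43.03% of the summed CPM of Timd4, 19.1% of Cd14 and 10.6% of Cd68. Among the genes of interferon gamma response and antigen presentation, 2 of 21 were lower, a share under the 12.7% of all tested genes. These were H2-Eb1 (-1.05) and Psmb9 (-0.90), and neither passed in limma-voom. Without strain CC044, 0 were lower and 4 higher. Type I interferon-stimulated genes were higher in absent mice for 5 of 20 members, with a median of 0.50, and for 3 in limma-voom. Ifit3 rose by 1.27 (adjusted p = 0.011), Mx2 by 2.32 (adjusted p = 0.00096), Ifih1, the sensor MDA5, by 0.65 (adjusted p = 0.013) and Ifit1 by 1.16 (adjusted p = 0.015). The cluster of type I interferon genes lies on the Mtap side of Cdkn2a, but none of the 17 on the list had enough counts to be tested. The list left out predicted genes such as Gm13285, which starts 495 kb from Cdkn2a on that side. Gm13285 was -0.87 in edgeR (adjusted p = 0.13) and -1.60 in limma-voom (adjusted p = 0.0045), with medians of 0.385 CPM in absent and 1.29 CPM in high tumours.

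Of 26 senescence-associated secretory genes 5 were lower and 1 higher, with a median of -0.23. Timp1, an inhibitor of matrix metalloproteinases, was -0.93 and the cytokine gene Il1a -1.95, and the growth factor gene Areg was 1.49 (adjusted p = 0.017). In limma-voom 3 of the 26 were lower and 1 higher, with a median of -0.29. DESeq2 called 8 lower and 1 higher, with a median of -0.47. Neither Timp1 (adjusted p = 0.37) nor Il1a (adjusted p = 0.98) was called in limma-voom. Of 7 nerve and glia genes 2 were higher, among them Prph (1.09), and Uchl1 (-1.68) was lower. Of 21 mesothelial markers only the keratin gene Krt8 passed (1.496 ± 0.55, adjusted p = 0.037), and 0 passed in limma-voom, with 0 at an unadjusted p under 0.05. Of 14 endothelial genes 0 passed in edgeR, limma-voom or DESeq2, with 0 at an unadjusted p under 0.05 in each. Over all tested genes 6142 of 16464, 5383 of 16252 and 6136 of 16464 had such a p in the same order.

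Genes of adjoining organs were measured in both groups. All 17 hepatocyte genes were higher in absent mice in edgeR, 12 in DESeq2 and 1 in limma-voom. The median of their summed level was 576 CPM in absent and 82.2 CPM in high mice. The hepatocyte list took a median of 0.0555% and at most 19.9% (TAS-I1) of the counts of absent libraries, against 0.00747% and at most 3.0% in high libraries. Adipocyte genes (6 of 10), intestinal genes (4 of 7) and kidney and adrenal genes (3 of 4) were called higher and pancreatic acinar genes (3 of 10) lower, with 1, 0, 0 and 0 passing in limma-voom. Skeletal muscle genes took over 1% of the counts in 5 absent and 2 high libraries, at most 6.13%. Of 15 such genes 1 was higher in absent mice in edgeR, 13 in DESeq2 and 0 in limma-voom. Without the libraries in which another tissue took over 1% of the counts, 4347 genes passed, and Cdkn2b (-4.66) and Mtap (-1.72) stayed lower. In that fit 6 hepatocyte genes were higher, and the acinar list turned, with 0 lower and 7 higher of 10 and a median of 3.34 in place of -2.05. Of 6 tested erythroid genes 0 passed in edgeR and 3 were lower in limma-voom. Summed Y-linked genes reached 10 CPM in 29 of 42 absent and 14 of 27 high mice, and the labels used give no sexes.

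**Figure D4:**
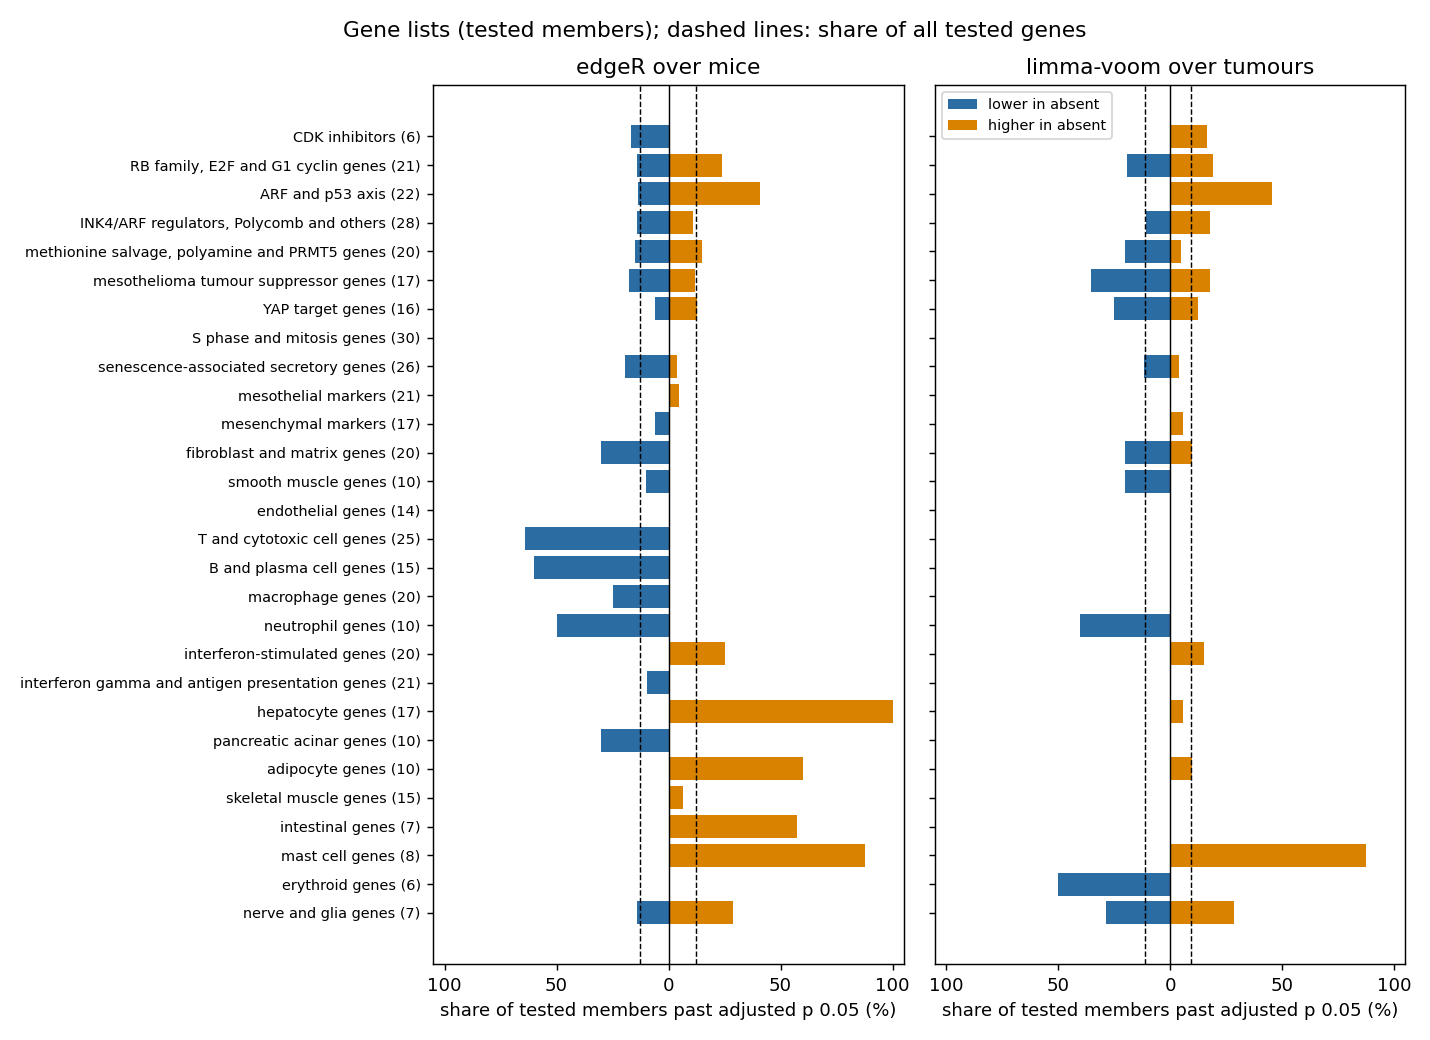
Share of the tested members of each gene list that passed an adjusted p of 0.05, lower in absent to the left and higher to the right, in edgeR over mice (left panel) and limma-voom over tumours (right panel). Lists with under 5 tested members are left out and dashed lines give the shares of all tested genes (12.7% and 12.4% on the left, 11.2% and 9.39% on the right). The mast cell list extends to the right in both panels, and the T cell, B cell and hepatocyte lists are long only on the left.

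Genes that passed were unevenly spread over the chromosomes, a pattern singled out after the values were seen and given without a test. On chromosome 10, 25.2% of 802 tested genes were higher in absent mice and 5.74% lower, and on chromosome 12, 25.4% of 611 were higher and 5.07% lower. Chromosome 16 was the reverse, with 5.98% higher and 25.9% of 502 lower, and chromosomes 3, 5, 15 and 17 had 20.2% to 21.9% lower. Chromosome 4, which carries Cdkn2a, had 13.2% lower and 11.1% higher, near the shares over all genes. A level was computed for each chromosome and mouse as the median over its genes of centred log2 CPM. For chromosome 10 it was -0.12 to 0.33 (median 0.04) in absent mice and -0.39 to 0.40 (median -0.12) in high mice, and 42 of 42 absent mice lay above the high median. For chromosome 12 and for chromosome 18, 41 of 42 absent mice lay above it, and for chromosome 16, 41 of 42 lay below. The shifts were small, with group medians of the level 0.19 apart or less on every chromosome, and the ranges of the groups overlapped on each. In the fit with strain as covariate the median log2 fold change was 0.23 on chromosome 10, 0.17 on chromosome 12 and -0.09 on chromosome 16. On chromosome 17 it was -0.01 in place of -0.12, and chromosome 8, at 0.27, had the largest value.

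**Figure D5:**
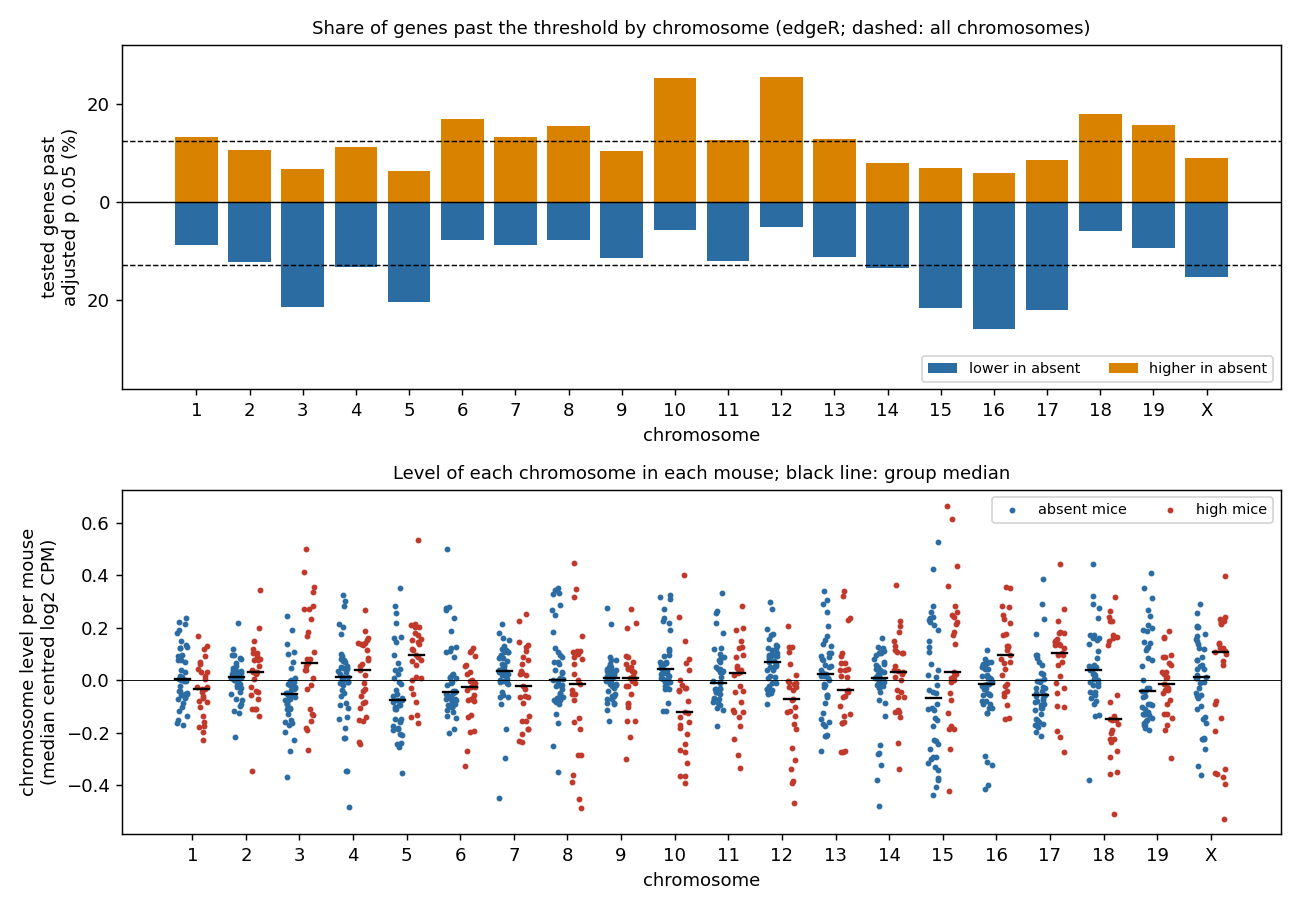
Top, share of the tested genes of each chromosome that were higher (up) or lower (down) in absent mice in edgeR, with dashed lines at the shares over all chromosomes. Bottom, level of each chromosome in each mouse as the median of centred log2 CPM over its genes, with the group median as a black line. The group medians differ most on chromosomes 18, 5, 10, 17 and 12.

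The study's labels sort mice by survival. Of the 42 absent mice 13 (30.95%) and of the 27 high mice 11 (40.7%) were below median survival, an odds ratio of 1.53 that did not differ by Fisher's exact test, two-sided (p = 0.45). A p above the threshold does not show that survival was alike. With survival class as a covariate 3732 genes passed, and Cdkn2b (-4.66) and Mtap (-2.02) were lower.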

How the data were processed

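Total RNA of whole tumours was sequenced from strand-specific mRNA libraries, per the labels' protocols. The deposited table holds an estimated count per gene and tumour, given as whole numbers without normalization, for 36118 genes and 167 tumours. Counting was done by the authors with kallisto 0.46.1 on build GRCm38, per the submitters' processing notes, which also name DESeq2 and DESeq, with the annotation release not given in the sources used here. A second table repeats these counts for 22049 genes (all 3682183 cells equal, exact equality) and was not used. Symbols were found for 35825 genes, and positions come from GENCODE and RefSeq annotations of GRCm38.

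CPM is a count over the column sum. Member tumours were summed per mouse, filtered with filterByExpr, given TMM factors and compared by the quasi-likelihood test of edgeR 4.0.16 in R 4.3.3. Fold changes used the default prior count of edgeR. A prior count of 2 entered only the log2 CPM behind the covariates for mesothelial marker level and cell cycle level. The threshold was 0.05 for two-sided p-values after Benjamini-Hochberg adjustment over all genes tested. The biological coefficient of variation had a median of 50.4%. Alternatives used limma 3.58.1 (voom, tumours as libraries, mouse as random block) and DESeq2 1.42.0. On simulated counts for this comparison over 16465 genes, 62 of 100 genes changed by 1 on the log2 scale and 88 of 100 changed by 2 were called, with 11 of 16265 unchanged genes. The simulated counts were drawn independently for each mouse, without strain differences. They therefore do not give the share of false calls in the real groups, which differ in strain. Each mouse is a separate animal, so p-values of the fits over mice measure spread between mice. Several strains gave more than 1 mouse to a group, and fits without a strain term treated such mice as independent. Their p-values therefore do not measure spread between strains. Counting errors take no account of duplicate molecules.

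The groups, lists and tests were chosen with earlier results of these data known. Named genes were the neighbours past the threshold, 8 genes of the Cdkn2a pathway and the 12 of lowest p in each direction. Those 12 had a log2 fold change of 1 or more in size, a mean of at least 5 CPM and a symbol of a known gene. Further named genes were the 6 of lowest p within strain under the same limits, and the members of a list past the threshold. Where a list had over 4 such members, the 4 of lowest p were named. Other members are named beside these, and of lists of other organs only counts are given. Some list members are not reported here. Within-mouse contrasts were not run, since only 1 mouse held both groups and its labels were in doubt.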

Additional observations from a re-analysis of the deposited data

How the results depend on the processing

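With strain as covariate 77 genes passed between absent and high mice in place of 4138, with 10 strains and 28 mice behind the contrast. Within strain DESeq2 called 958 genes and limma-voom 128. For Mtap, the fold change with thresholds of 5 and 20 CPM was -0.94 and with strain as covariate -2.21, both past no threshold. Under the other alternatives Mtap kept its direction and its call, and Cdkn2b did so under all that were run. Without the libraries of the highest library numbers Mtap was -1.39 (adjusted p = 0.0023, edgeR), and 5428 genes passed in place of 4138. Over all further named genes and all alternatives, 2083 values kept direction and side of the threshold, 238 kept only the direction, 7 passed only in the alternative and 32 changed sign. These totals pool alternatives that differ much. The fit with strain as covariate alone gave 12, 73, 1 and 15 in the same order, so most named genes lost their call there. With strain as covariate the values that changed sign were A2m 0.37, Cd2 0.63, Cd79a 0.21, Ctla4 0.78, Fcrla 0.015, Foxp3 0.17, H2-Eb1 0.28, Il4i1 0.075, Marco 0.52, Pax5 0.42, Psmb9 1.11, Ptprcap 0.40, Timd4 0.95, Tnfrsf13c 0.11 and Zap70 0.32. With thresholds of 1 and 50 CPM they were Cd2 0.35, Cd79a 0.069, Ctla4 0.58, Pax5 0.25, Psmb9 0.61 and Zap70 0.41. Without strain CC044 they were Cd2 0.28, Ctla4 0.30, Psmb9 0.33 and Zap70 0.11, and with DESeq2 Cd2 0.31, Pax5 0.029 and Zap70 0.12. Cdkn2c was 0.037 with thresholds of 5 and 20 CPM. Cdk6 was 0.019 in mice with every tumour in 1 group, 0.053 without libraries with another tissue and 0.14 without the libraries of the highest library numbers. That last setting, and covariates for the cell cycle level and for libraries with Umod at 2 CPM or more, were chosen after seeing the data. The causes of these changes were not tested. No paired analysis was possible because replicate numbers only name the samples and 1 mouse held both groups. The groups differ in strain, and a strain term leaves few mice, so strain and Cdkn2a class can be told apart only in part.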
